A study of Mus musculus with 7 samples.

Results

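The 10 genes followed here serve MHC class I antigen presentation and were measured in retinal microglia (rMG) sorted from Irf8 knockout (KO) mice with and without laser injury. They are the class I heavy chains H2-K1 and H2-D1, their light chain B2m, the peptide transport and loading genes Tap1, Tap2 and Tapbp, the immunoproteasome subunits Psmb8, Psmb9 and Psmb10, and the class I transactivator Nlrc5. They were found by their symbols among the 40743 genes listed. All of them are protein-coding, and all 10 passed the filter on low values. RNA sequencing was available for 3 libraries from unlasered mice and 4 from lasered mice, whose rMG were sorted a week after laser photocoagulation of the retina, a model of choroidal neovascularisation. Every mouse was Irf8-/- Cx3cr1GFP/+ on a C57BL/6J background, so the germline Irf8 deletion and the GFP allele at Cx3cr1 are shared by both groups. Each library pooled 3 to 4 mice and held 10000 cells on average, gated as CD45low, CD11b+, GFP+, Ly6C- and Ly6G-. The central 70% of the retina was taken from lasered mice only, so laser injury and retinal region cannot be told apart. The study calls the Irf8 KO mice of its RNA sequencing adult, with no age in weeks given for these libraries in the sources used here. Wild-type libraries were not analysed here, and p-values measure the spread between pools of mice.

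Levels are given in CPM, the reads of a gene as a share of all reads of its library, on a common scale. Library totals ran from 20427558 to 45919042 reads, so the smallest level counted as detected, 3 reads, was 0.0653 to 0.147 CPM. These floors cover counting error only. Irf8 itself, listed together with the overlapping Gm20388, stood at 529.9, 489 and 507 CPM in unlasered and at 463, 465, 475 and 582 CPM in lasered libraries. Such reads go against a loss of all Irf8 RNA, but reads counted per gene do not show whether the message is intact. Whether they come from the targeted allele was not tested, and every direction below rests on the labels of the libraries. The study reports that staining for TMEM119 and P2RY12 was strong in Irf8-competent rMG and almost absent in Irf8-deficient rMG of retinal flat mounts. In its RNA sequencing both genes were lower in Irf8 KO rMG than in controls. The marker levels below are RNA in KO libraries only, so they do not bear on that comparison. The summed level of 11 microglia markers was 25354 to 30231 CPM in unlasered and 22844 to 30867 CPM in lasered libraries, with none of the 10 tested markers called by limma at an adjusted p under 0.05, although P2ry12 was lower in every lasered library (adjusted p = 0.0693) and Sall1 stayed between 0 and 1.36 CPM. Rod photoreceptor markers summed to 2251 to 20191 CPM in unlasered and 321 to 1020 CPM in lasered libraries, and 14 of 15 were called lower by limma.

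MHC class I molecules display peptides from the inside of a cell to CD8 T cells and natural killer cells. Proteasomes cut the peptides, and 3 interferon-inducible subunits can replace the constitutive catalytic subunits to form the immunoproteasome. The TAP transporter moves the peptides into the endoplasmic reticulum, where tapasin holds it close to the empty heavy chain and beta-2 microglobulin, and NLRC5 acts on the promoters of most of these genes. Resting microglia carry little class I at their surface and raise it upon interferon signalling and injury.

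The promoters of the class I chains are shown because H2-K1 and H2-D1 rose together while B2m did not pass the test, and the Tap1 promoter because it is shared with Psmb9, which did not pass the test. The 250 bases before the start site are given as listed by RefSeq for GRCm38.p6, read 5′ to 3′ on the strand of the gene. Capitals mark matches to AANNGAAA, the core of an interferon regulatory factor site, or to GGGATTCCC, the NF-kappaB site of the class I enhancer, searched on both strands. Of the 2 start sites listed for H2-K1, the downstream one was used.
H2-K1 (chr17:34000334-34000583, minus strand): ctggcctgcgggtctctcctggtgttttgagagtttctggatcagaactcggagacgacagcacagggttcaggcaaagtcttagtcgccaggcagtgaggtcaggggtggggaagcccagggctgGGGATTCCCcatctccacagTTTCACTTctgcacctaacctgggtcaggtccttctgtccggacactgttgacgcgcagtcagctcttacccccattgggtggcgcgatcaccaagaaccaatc
H2-D1 (chr17:35262844-35263093, plus strand): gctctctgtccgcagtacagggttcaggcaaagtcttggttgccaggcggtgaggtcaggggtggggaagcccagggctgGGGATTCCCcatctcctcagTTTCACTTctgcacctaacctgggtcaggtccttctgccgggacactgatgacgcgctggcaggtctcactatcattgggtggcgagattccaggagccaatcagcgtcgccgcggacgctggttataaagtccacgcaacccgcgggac
B2m (chr2:122147437-122147686, plus strand): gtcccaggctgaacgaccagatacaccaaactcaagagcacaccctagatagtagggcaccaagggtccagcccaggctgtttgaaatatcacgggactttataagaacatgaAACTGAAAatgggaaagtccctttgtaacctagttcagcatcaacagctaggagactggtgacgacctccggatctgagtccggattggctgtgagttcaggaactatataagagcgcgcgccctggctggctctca
Tap1 (chr17:34187306-34187555, plus strand): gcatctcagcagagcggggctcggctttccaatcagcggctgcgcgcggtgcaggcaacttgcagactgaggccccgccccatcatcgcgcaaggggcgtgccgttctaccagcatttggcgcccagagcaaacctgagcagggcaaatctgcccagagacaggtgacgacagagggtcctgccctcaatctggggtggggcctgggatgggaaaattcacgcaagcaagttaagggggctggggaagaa

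GGGATTCCC began 124 bases before the start of H2-K1 and 170 bases before that of H2-D1, in both on the strand of the gene. It occurred in 115 of 32544 RefSeq promoter windows of 300 bases (0.3534%), which run to 50 bases past the start. In both genes it was followed by a match to AANNGAAA on the minus strand of the gene, printed as TTTCACTT, 104 and 150 bases before the start. B2m had AANNGAAA at 137 bases before its start and no GGGATTCCC in its window. The core AANNGAAA was common, with 23.94% of all windows holding it, and both strings were chosen after these sequences had been read. Laid side by side at GGGATTCCC without gaps, the windows of H2-K1 and H2-D1 shared 180 of 254 bases (70.87%). The Tap1 and Psmb9 start sites lie 226 bases apart on opposite strands, and 275 bases of their windows are the same stretch. Neither that stretch nor the windows of Tapbp, Psmb8 and Psmb10 held either of these strings of letters. A CCAAT box, searched as CCAAT and found in 37.36% of all windows, occurred in the windows of H2-K1, H2-D1, B2m, Tap1, Psmb9 and Tapbp. Promoters were found for 8 of the 10 genes, not for Tap2 and Nlrc5, and a match is a description of the sequence only.

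H2-K1, H2-D1 and Tap1 rose in lasered rMG, by 1.73-fold, 1.73-fold and 1.95-fold on the log2(CPM + 1) scale, and none of the 10 genes fell. The other 7 genes, B2m, Tap2, Tapbp, the 3 immunoproteasome subunits and Nlrc5, did not pass an adjusted p of 0.05 in limma. Over all 17496 genes tested, 3.86% were called higher and 3.07% lower, or 6.93% in either direction, against 3 of 10 here. In the same 3 genes every lasered library lay above every unlasered library, a pattern of 10.4% of all genes tested, while none of the 10 had every lasered library below (10.7% of all genes). The log2 fold change was above 0 in 9 of the 10 genes, with Tap2 as the exception, and in 48.4% of all genes. The median log2 fold change was 0.31 over the 10 genes and -0.01 over all genes tested. In pooled sorted cells, more cells of a type and more RNA per cell cannot be told apart.

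**Figure D1:**
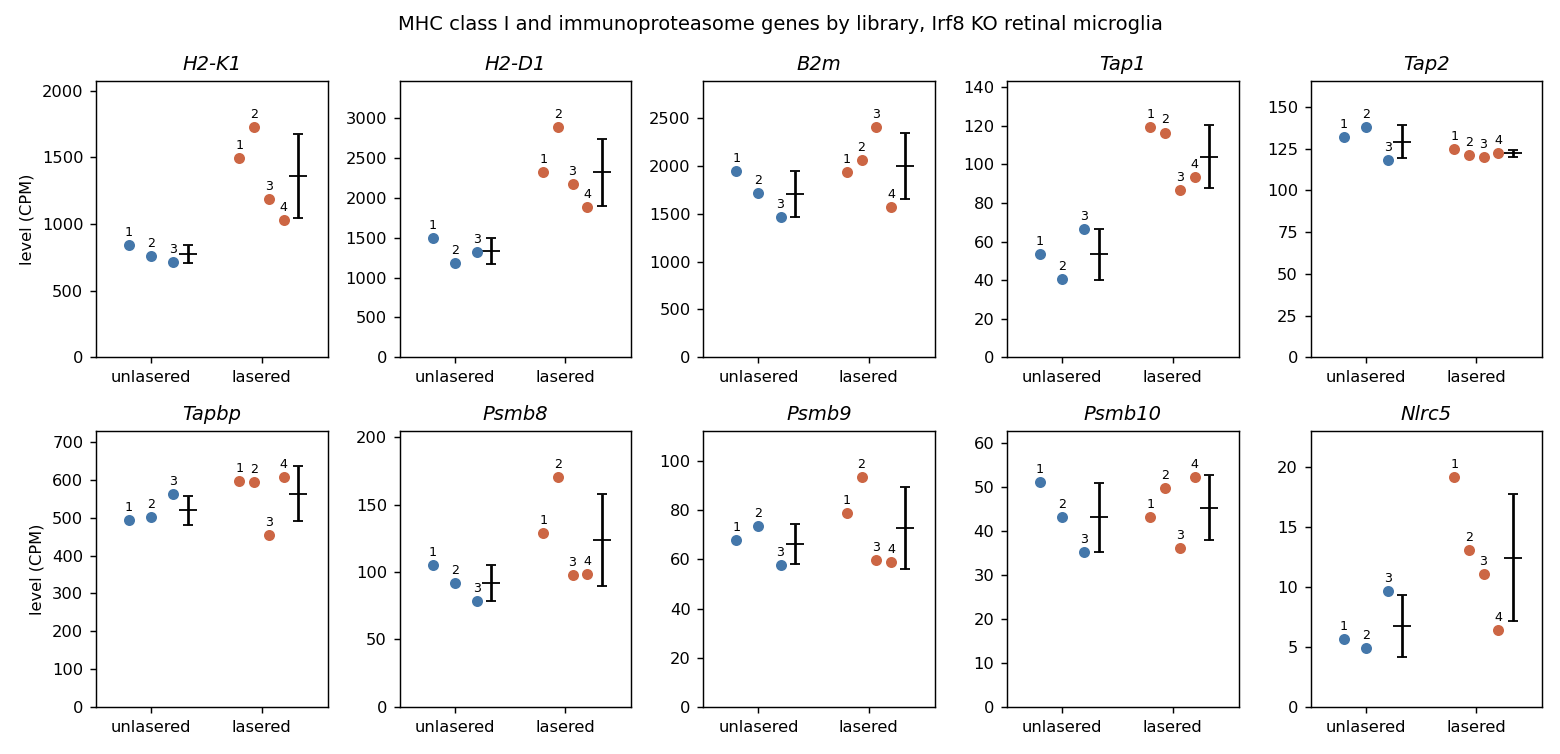
Level of each of the 10 genes in CPM (vertical axes, from 0) in the 3 unlasered (blue) and 4 lasered (red) libraries. Points are single libraries with their numbers, and the bar beside each group is the mean ± SD. The groups are apart for H2-K1, H2-D1 and Tap1 and overlap for the other 7 genes.

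H2-K1 (ENSMUSG00000061232, chr17:33996017-34000347 of GRCm38, minus strand) encodes the K heavy chain, which forms the peptide groove. It was measured at 845, 763 and 713 CPM in unlasered libraries 1 to 3 and at 1496, 1727, 1190.0 and 1028 CPM in lasered libraries 1 to 4. The lowest lasered library was above the highest unlasered library, and lasered libraries 1 and 2 were the highest. The mean was 774 ± 66.7 CPM (SD, n = 3) in unlasered and 1360.2 ± 312 CPM (SD, n = 4) in lasered libraries, a log2 fold change of 0.79 (standard error 0.18, 95% confidence interval 0.39 to 1.19, adjusted p = 0.0346 from limma).

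H2-D1 (ENSMUSG00000073411, chr17:35262730-35267499, plus strand) encodes the D heavy chain. Its level was 1502, 1182 and 1321 CPM in unlasered libraries 1 to 3 and 2331, 2892, 2175 and 1892 CPM in lasered libraries 1 to 4. The groups did not overlap, and the order of the lasered libraries was the same as for H2-K1, with library 2 highest and library 4 lowest. The log2 fold change was 0.79 (standard error 0.15, 95% confidence interval 0.44 to 1.14, adjusted p = 0.0226 from limma). The ratio of H2-D1 to H2-K1 per kilobase was 1.97 ± 0.179 (SD, n = 3) in unlasered and 1.97 ± 0.154 (SD, n = 4) in lasered libraries. Together they made up 81.3% to 82.6% of the summed CPM of 28 class I heavy chain genes in unlasered and 83.7% to 84.8% in lasered libraries.

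B2m (ENSMUSG00000060802, chr2:122147686-122153083, plus strand) encodes beta-2 microglobulin, the light chain common to all class I molecules. It stood at 1945, 1717 and 1467 CPM in unlasered libraries 1 to 3 and at 1939, 2064, 2405 and 1569.9 CPM in lasered libraries 1 to 4. Lasered libraries 2 and 3 exceeded every unlasered library, whereas library 4 lay below unlasered libraries 1 and 2. The log2 fold change was 0.22 (95% confidence interval -0.14 to 0.58, adjusted p = 0.473 from limma). With a rank of 33 by CPM among all genes listed, B2m was the most abundant of the 10 genes in unlasered libraries.

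Tap1 (ENSMUSG00000037321, chr17:34187553-34197225, plus strand) and Tap2 (ENSMUSG00000024339, chr17:34203527-34216321, plus strand) encode the subunits of the peptide transporter and lie next to Psmb8 and Psmb9 in the class II region. Tap1 was read at 53.3, 40.3 and 66.4 CPM in unlasered and at 119, 117, 86.7 and 93.6 CPM in lasered libraries. All lasered libraries were above all unlasered libraries, and libraries 1 and 2 were again the highest. The log2 fold change of Tap1 was 0.97 (standard error 0.19, 95% confidence interval 0.53 to 1.40, adjusted p = 0.0245 from limma), the largest of the 10. Tap2 stood at 132, 138 and 118 CPM in unlasered and 125, 121, 120.1 and 122 CPM in lasered libraries. No lasered library exceeded the highest unlasered library, and the log2 fold change of -0.08 had a 95% confidence interval of -0.33 to 0.17 (adjusted p = 0.732 from limma).

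Tapbp (ENSMUSG00000024308, chr17:33915899-33929292, plus strand) encodes tapasin, which bridges the transporter and the heavy chain. It was measured at 494, 502 and 563 CPM in unlasered and at 597, 594, 455 and 608 CPM in lasered libraries. Lasered libraries 1, 2 and 4 were above all unlasered libraries and library 3 was the lowest of the 7. The log2 fold change was 0.11 (95% confidence interval -0.19 to 0.41, adjusted p = 0.683 from limma). A part of its reads is listed jointly with Zbtb22, and 24.9% of its exonic bases overlap Gm19412 on the other strand, so this level is uncertain in a library type that does not mark strand. Genes on the other strand also overlap 14.7% of the exonic bases of Psmb8 (Gm20496) and 14.1% (Gm15821) and 4.36% (Gm20496) of those of Tap2. Tap1 and Psmb9 overlap each other over 3.87% and 5.79% of their exonic bases, so the same limit holds for these 4 levels and for their ratios.

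Psmb8, Psmb9 and Psmb10 encode the inducible catalytic subunits beta5i, beta1i and beta2i, which take the places of Psmb5, Psmb6 and Psmb7. Psmb8 (ENSMUSG00000024338, chr17:34197721-34201454, plus strand) stood at 105, 91.8 and 78.6 CPM in unlasered and at 129, 171, 98.0 and 98.8 CPM in lasered libraries. Lasered libraries 1 and 2 were above every unlasered library, and libraries 3 and 4 lay within the unlasered range. Its log2 fold change was 0.40 (95% confidence interval -0.07 to 0.87, adjusted p = 0.295 from limma). Psmb9 (ENSMUSG00000096727, chr17:34181987-34187764, minus strand) showed the same split at 78.9 and 93.6 CPM in lasered libraries 1 and 2 against 59.6 and 59.0 CPM in libraries 3 and 4, with 67.7, 73.6 and 57.6 CPM in unlasered libraries. Its log2 fold change was 0.11 (95% confidence interval -0.31 to 0.54, adjusted p = 0.775 from limma).

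Psmb10 (ENSMUSG00000031897, chr8:105935735-105938444, minus strand), which lies outside the MHC, was read at 51.1, 43.1 and 35.2 CPM in unlasered and at 43.1, 49.9, 36.0 and 52.4 CPM in lasered libraries. The ranges nearly coincided, and the log2 fold change was 0.07 (95% confidence interval -0.34 to 0.48, adjusted p = 0.855 from limma). For all 3 subunits the confidence intervals end below the point estimates of Tap1, but a difference between genes was not tested. Nlrc5 (ENSMUSG00000074151, chr8:94434356-94527272, plus strand), the transactivator of class I genes, was the least abundant of the 10, at 5.63, 4.91 and 9.66 CPM in unlasered and 19.2, 13.1, 11.1 and 6.44 CPM in lasered libraries. Lasered libraries 1, 2 and 3 exceeded all unlasered libraries and library 4 did not. The log2 fold change of 0.76 was close to that of the heavy chains but its 95% confidence interval ran from -0.01 to 1.53 (adjusted p = 0.227 from limma), on 115 to 846 reads per library. These reads include some that the table lists jointly with an overlapping gene, so the level of Nlrc5 is uncertain too.

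**Figure D2:**
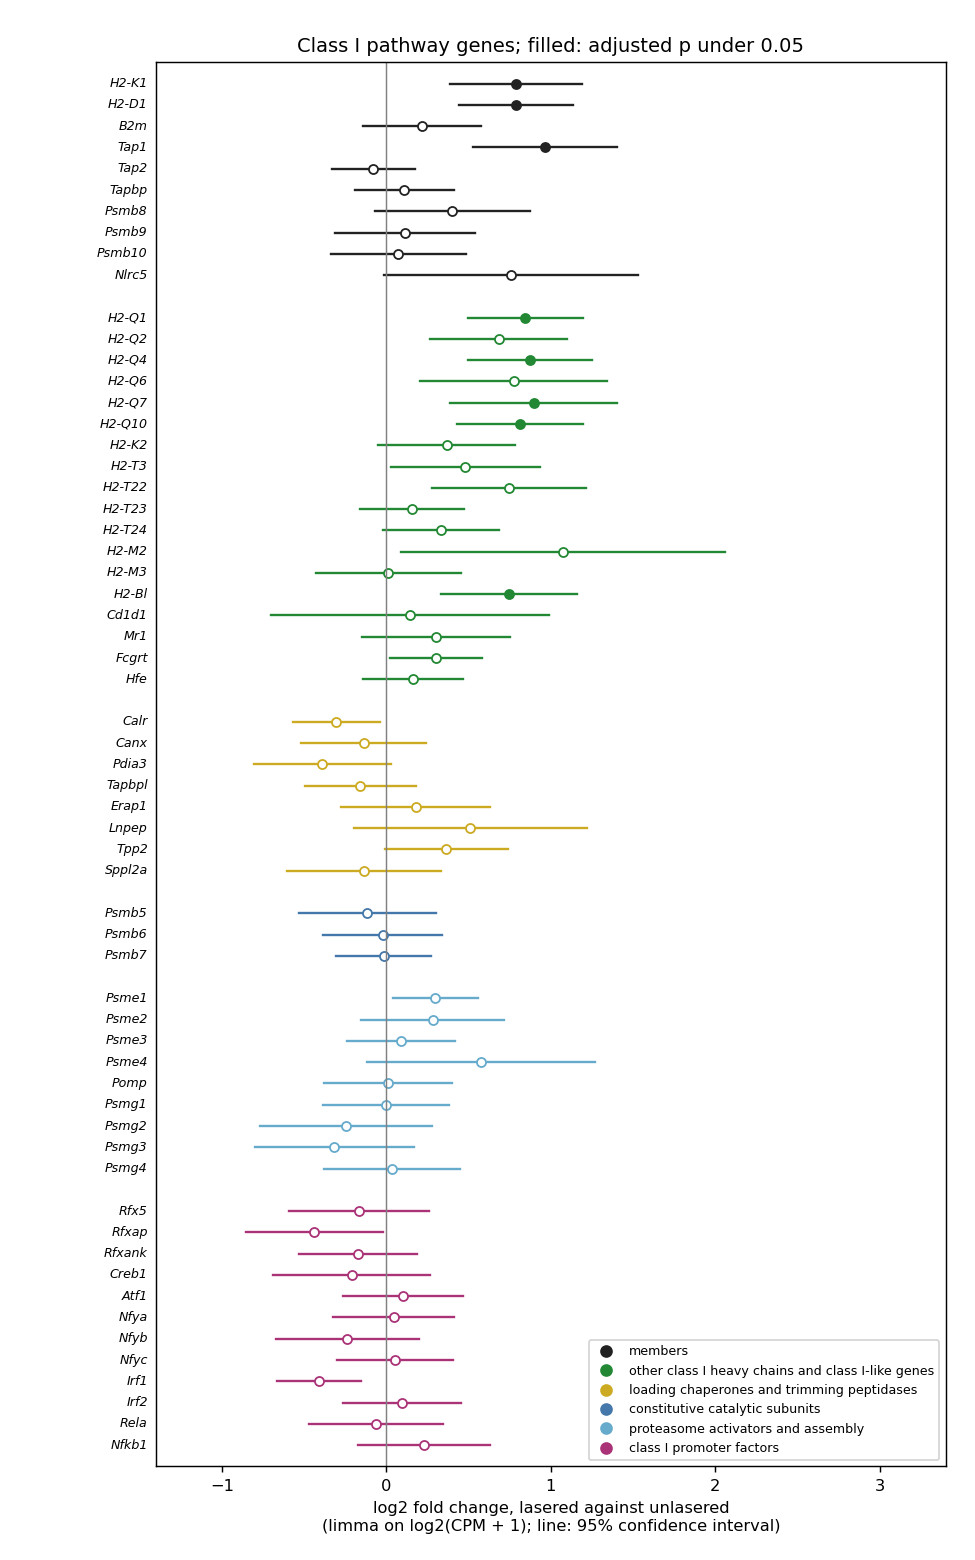
Log2 fold change, lasered against unlasered (horizontal axis, limma on log2(CPM + 1)) for the 10 genes and 50 further genes of the class I pathway, with lines as 95% confidence intervals and filled points at an adjusted p under 0.05. Filled points appear only among H2-K1, H2-D1, Tap1 and 5 of the other class I genes, all to the right of 0.

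Gene pairs that work together were compared as ratios of CPM per kilobase of merged exons within each library, which removes any scaling of the whole library. The ratio of H2-K1 to B2m was 0.127 to 0.142 in unlasered and 0.145 to 0.245 in lasered libraries, and lasered library 3, where B2m was highest, almost touched the unlasered range. The ratio of H2-D1 to B2m was 0.262 ± 0.0357 (SD, n = 3) in unlasered and 0.393 ± 0.0683 (SD, n = 4) in lasered libraries, again with library 3 (0.302) just above the highest unlasered ratio (0.300). Tap1 to Tap2 stood at 0.279, 0.202 and 0.388 in unlasered and at 0.660, 0.662, 0.499 and 0.529 in lasered libraries, every lasered ratio being above every unlasered ratio. Tap1 to its divergent neighbour Psmb9 had a mean of 0.555 ± 0.204 (SD, n = 3) in unlasered and 0.969 ± 0.0982 (SD, n = 4) in lasered libraries.

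Among the exchangeable subunits, the ratio of Psmb8 to Psmb5 was 0.775, 0.582 and 0.777 in unlasered and 1.13, 1.24, 0.965 and 0.778 in lasered libraries. Lasered library 4 was barely above the highest unlasered library. The ratios of Psmb9 to Psmb6 (means 0.309 and 0.344) and of Psmb10 to Psmb7 (means 1.78 and 1.93) overlapped between groups. In exact two-sided permutation tests, the 5 ratios without overlap each gave p = 0.0571, the smallest that 3 against 4 libraries allow, or 0.0914 after Benjamini-Hochberg adjustment over the 8 ratios compared, so none could pass 0.05. All 5 but Psmb8 to Psmb5 have H2-K1, H2-D1 or Tap1 as numerator. The groups were already apart for these genes, so those ratios are not separate evidence. How many other gene pairs lack overlap was not counted. The values of Psmb5 and Psmb7 contain reads that the table gives to them together with an overlapping gene.

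**Figure D3:**
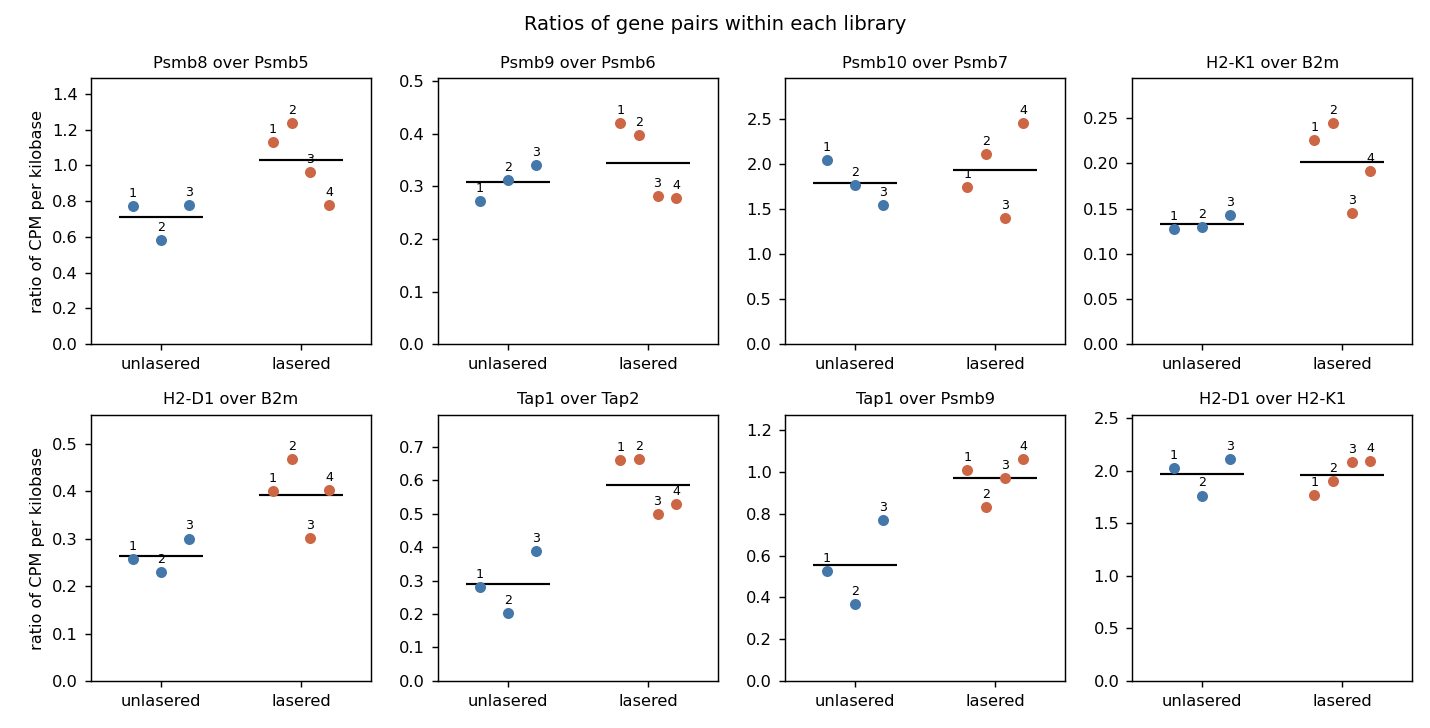
Ratios of CPM per kilobase of merged exons for 8 gene pairs (vertical axes, from 0) in unlasered (blue) and lasered (red) libraries, with library numbers at the points and group means as lines. The groups are apart for Psmb8 over Psmb5, both heavy chains over B2m, Tap1 over Tap2 and Tap1 over Psmb9, and the ratio of H2-D1 to H2-K1 has the same mean, 1.97, in both groups.

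Per kilobase, levels of the 10 genes spanned more than 3 orders of magnitude in unlasered rMG. B2m was highest at 1988 ± 278 CPM per kilobase (SD, n = 3), followed by H2-D1 at 518 ± 62.1, H2-K1 at 263 ± 22.7 and Tapbp at 143 ± 10.5. Then came Tap2 at 34.2 ± 2.67, Psmb8 at 27.2 ± 3.95, Psmb10 at 25.3 ± 4.64, Psmb9 at 18.1 ± 2.22, Tap1 at 9.74 ± 2.38 and Nlrc5 at 0.793 ± 0.302 CPM per kilobase. Only the neighbours Psmb8 and Psmb10 overlapped between libraries. In lasered rMG Psmb8 (36.7 ± 10.1, SD, n = 4) stood above Tap2 (32.3 ± 0.541). Among neighbours in the lasered order, Psmb8 overlapped Tap2, Psmb10 overlapped Psmb9, and Psmb9 (19.9 ± 4.56) overlapped Tap1 (19.0 ± 2.98). Genes further apart in that order were not compared in this way, and Psmb8 and Psmb10 overlapped too. The places of B2m, H2-D1, H2-K1, Tapbp and Nlrc5 did not depend on whether merged exons or the longest coding transcript gave the length, but those of Tap2, Psmb8, Psmb9, Psmb10 and Tap1 did: with the coding transcript, unlasered Psmb8 and Psmb9 stood 5th and 6th and Tap2 7th.

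Of 20 further class I genes listed with earlier results known, 18 were tested, 5 were called higher and none lower, and all 18 had a log2 fold change above 0, with a median of 0.58. Over all genes tested, 3.86% were called higher, 48.4% had a log2 fold change above 0, and the median was -0.01. H2-Q1, H2-Q4, H2-Q7 and H2-Q10 of the Q region and H2-Bl rose, with log2 fold changes of 0.84, 0.88, 0.90, 0.81 and 0.74 and adjusted p-values of 0.0181, 0.0204, 0.0470, 0.0281 and 0.0452 (limma). H2-Q7, for example, stood at 37.9, 31.4 and 35.5 CPM in unlasered and 73.0, 95.2, 54.4 and 48.9 CPM in lasered libraries, apart and with lasered libraries 1 and 2 highest. These genes share sequence, and 39.2% of the 50-base stretches of H2-Q4 and 34.9% of those of H2-Q7 also occur in transcripts of other genes, against 13.9% for H2-D1, 6.87% for H2-K1 and none for B2m, Nlrc5 and H2-Bl, so counts of the Q genes are uncertain. The share was also 43.9% for H2-T22, 35.0% for H2-Q6 and 29.8% for H2-T23, so the 18 genes are not all separate measurements. Hfe, an iron regulator with a class I fold and the highest level in this list, had a log2 fold change of 0.16 (adjusted p = 0.526 from limma). H2-T10 was not in the table and H2-M5 was below the filter.

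The genes around the class I chains and TAP did not pass the test. None of 8 loading chaperones and trimming peptidases was called (median log2 fold change -0.14). Among them the chaperone Calr was lower in every lasered library (1007, 1106 and 929.9 against 831, 719, 896 and 842 CPM; adjusted p = 0.159 from limma), and Pdia3, the partner of tapasin in peptide loading, had the highest level and a log2 fold change of -0.39 (adjusted p = 0.249). Of the constitutive subunits Psmb5, Psmb6 and Psmb7, none was called (log2 fold changes -0.12 to -0.02). Of 9 proteasome activators and assembly factors none was called, although Psme1, a subunit of the interferon-inducible PA28 cap, was higher in every lasered library (109, 114 and 96.8 against 134, 137, 125 and 128 CPM; log2 fold change 0.30, adjusted p = 0.161 from limma).

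Among 12 genes for factors at class I promoters none was called (median log2 fold change -0.11). Irf1, an activator of class I and immunoproteasome genes, was lower in each lasered library, with 172, 172 and 151 CPM against 119, 118, 132 and 127 CPM, and its log2 fold change was -0.41 (adjusted p = 0.0661 from limma, range over the alternatives 0.0283 to 0.427). Rela, the most abundant of the list, had a log2 fold change of -0.06 (adjusted p = 0.874).

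Lasered libraries did not contribute alike. Libraries 1 and 2 were both above libraries 3 and 4 for H2-K1, H2-D1, Tap1, Psmb8, Psmb9 and Nlrc5, 6 of the 10 genes, against 28.7% of all genes tested. Library 4 was the lowest of the lasered libraries for H2-K1, H2-D1, B2m, Psmb9 and Nlrc5 (5 of 10, against 36.4% of all genes). The class II genes and Ciita, which present extracellular peptides, parted the lasered libraries much further: their summed level was 304, 151 and 508 CPM in unlasered and 4021, 6565, 623 and 213 CPM in lasered libraries, with none of 7 called. H2-Ab1 stood at 858, 1497, 114 and 28.6 CPM in lasered libraries, ordered as H2-K1 and H2-D1 were, but library 4 lay below unlasered libraries 1 and 3 for H2-Ab1 and above all of them for H2-K1, H2-D1 and Tap1.

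**Figure D4:**
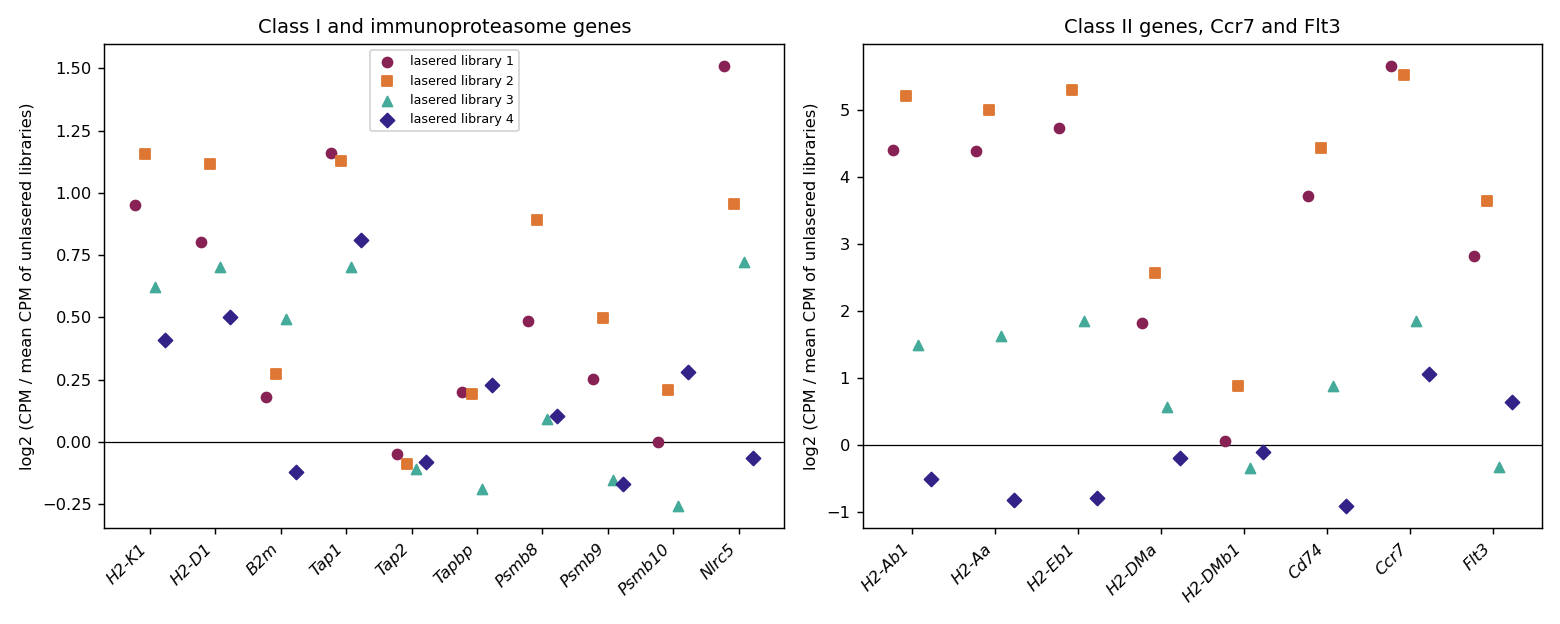
Level of each gene in the 4 lasered libraries as log2 of its CPM over the mean CPM of the unlasered libraries (vertical axes; the line at 0 is the unlasered mean), for the 10 genes (left) and for class II genes, Ccr7 and Flt3 (right), coloured as in the key. Libraries 1 and 2 stand highest for H2-K1, H2-D1, Tap1, Psmb8, Psmb9 and Nlrc5 and for every gene of the right panel, where the distances between libraries are larger for all genes but H2-DMb1.

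Markers of other cells parted the lasered libraries in the same way in part. Libraries 1 and 2 were both above libraries 3 and 4 for 9 of 10 dendritic cell markers, 7 of 8 monocyte markers, 6 of 13 T and NK cell markers, 3 of 8 endothelial and Mueller glia markers, 2 of 11 microglia markers and none of 15 rod markers. Over all genes tested, 28.7% had this order of the lasered libraries. The marker counts also include markers below the filter, which that share leaves out. All 6 T and NK cell markers counted were below the filter, as were Clec9a, Batf3, Ly6c2 and Vcan. The share is therefore not a like measure for them. In 6, 4, 5, 0, 1 and 0 of the markers counted, in the order given, libraries 1 and 2 also exceeded every unlasered library. The share of all genes that do so was not counted. Some markers rest on few reads in lasered libraries 1 and 2, such as Cd3d (5 and 7), Trac (8 and 4) and Clec9a (1 and 11). For Xcr1 both libraries lay within the unlasered range.

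Of the dendritic cell markers, Ccl22 was called higher. Ccr7 reached 74.8 and 68.5 CPM in lasered libraries 1 and 2 against 5.34 and 3.10 CPM in libraries 3 and 4, and Flt3 15.5 and 27.5 against 1.74 and 3.42 CPM. The list summed to 253 to 341 CPM in unlasered and 161 to 322 CPM in lasered libraries. Its most abundant gene, Fscn1, was lower in lasered libraries 1 to 3, at 222, 229 and 270.4 CPM in unlasered and 102, 83.1, 98.4 and 244 CPM in lasered libraries (adjusted p = 0.104 from limma). Xcr1 (0.675 to 2.48 CPM) and Zbtb46 (14.9 to 36.6 CPM) overlapped between groups, and Clec9a was at or below 0.245 CPM.

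Of the monocyte markers, Fn1 was called higher and made up most of the sum in the lasered libraries, which was 259 to 912 CPM against 87.4 to 356 CPM in unlasered libraries. The study reports that microglia at the lesions express FN1, so this sum is not particular to monocytes. Of the 6 monocyte markers tested, 3 had a log2 fold change above 0, and the median was 0.04. Plac8 (-0.88), Chil3 (-0.31) and S100a8 (-0.07) lay below 0, and Vcan was below the filter. Ccr2, the chemokine receptor of inflammatory monocytes, stood at 5.63, 6.37 and 14.2 CPM in unlasered and 81.5, 128, 19.7 and 7.57 CPM in lasered libraries, high in libraries 1 and 2 like the heavy chains (adjusted p = 0.186 from limma). Ly6c2, whose product was gated out, was at or below 0.891 CPM. Markers of T and NK cells summed to 2.53 to 3.13 CPM in unlasered and 2.37 to 8.26 CPM in lasered libraries. Cd4 (1.34 and 1.72 CPM), Gzma (1.36 and 1.78 CPM) and Nkg7 (0.249 and 0.780 CPM) were highest in lasered libraries 1 and 2. Mean levels of Lck (0.699 CPM in unlasered, 0.567 CPM in lasered libraries), Cd3e, Cd3g, Cd8a and Cd8b1 were lower in lasered libraries. Cd3e, Trac and Trbc2 were at or below 0.181 CPM. Of the 13 markers only Klrb1c passed the filter. It was above the unlasered range in all 4 lasered libraries (1.40 to 2.70 CPM) and was not called (adjusted p = 0.154 from limma). Endothelial and Mueller glia markers, whose sum is nearly all Apoe, a gene that microglia also express, summed to 52193 to 77223 CPM in unlasered and 29402 to 72607 CPM in lasered libraries, with none of 6 called.

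The part of other cells in the class I result was not tested. With lasered libraries 1 and 2 left out, an alternative chosen after seeing the data, H2-K1 had a log2 fold change of 0.52, H2-D1 of 0.61 and Tap1 of 0.77, none past the threshold (adjusted p = 0.193, 0.153 and 0.209 from limma), with 24 genes called overall.

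The pattern over the 7 libraries was compared within the 10 genes and with all others by Pearson's r on standardised log2(CPM + 1), as a description over libraries that share their depth and groups. Psmb8 (r = 0.96), H2-K1 (r = 0.94) and H2-D1 (r = 0.85) followed the mean profile of the remaining 9 genes most closely, and Psmb9 (r = 0.73), Tap1 (r = 0.69) and Nlrc5 (r = 0.54) less so. B2m, Psmb10 and Tapbp had r of 0.37, 0.33 and 0.33, and Tap2 ran the other way (r = -0.31). Outside the 10, with a mean of at least 10 CPM, the most similar genes were Cyp4f18 (r = 0.992), a fatty acid hydroxylase, the cathepsin inhibitor Cstb (r = 0.991), Pigt of GPI anchor attachment (r = 0.989), the metallothionein Mt1 (r = 0.984) and the processed pseudogene Gm13578 (r = 0.982). Cyp4f18 stood at 21.8, 17.1 and 13.5 CPM in unlasered and 57.0, 69.9, 25.3 and 22.5 CPM in lasered libraries. None of these 5 passed an adjusted p of 0.05 (lowest 0.104, for Pigt, from limma).

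**Figure D5:**
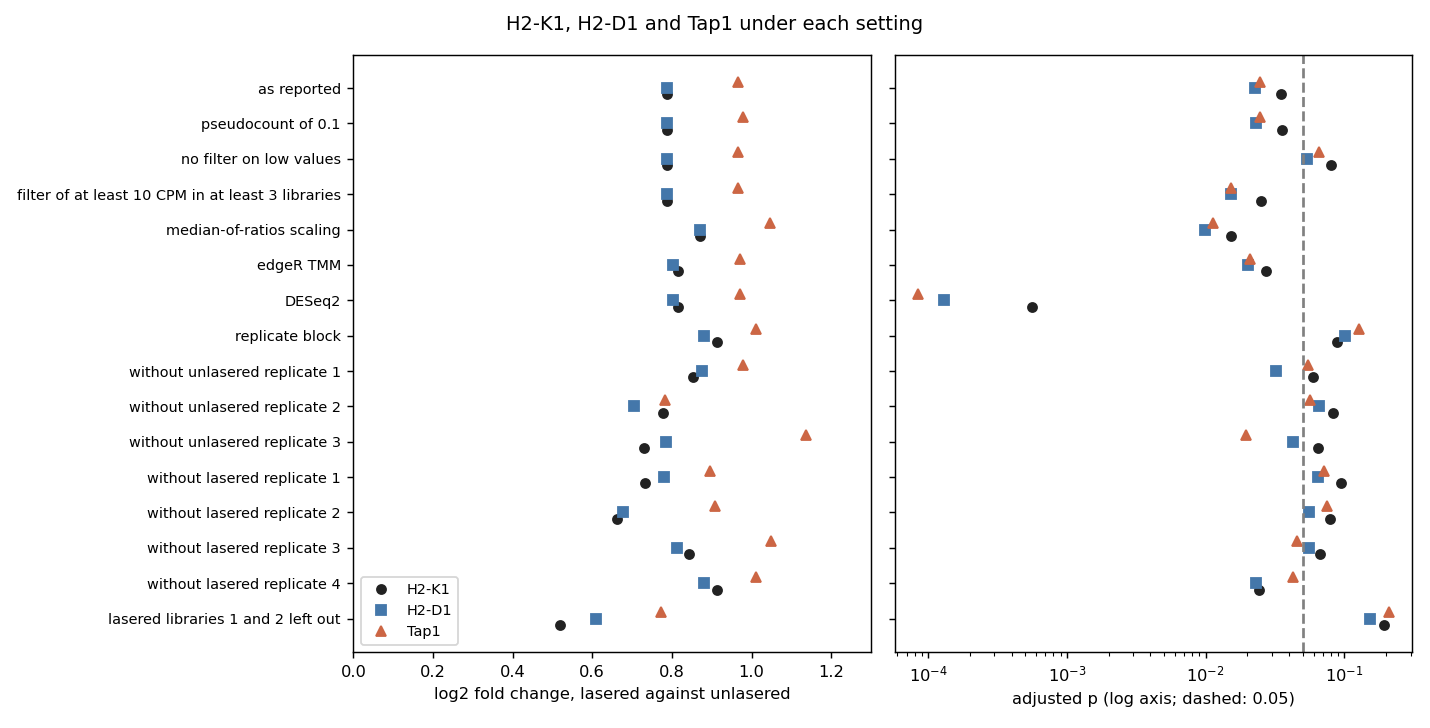
Log2 fold change (left) and adjusted p on a log axis (right, dashed line at 0.05) of H2-K1, H2-D1 and Tap1 as reported and under 15 alternatives. The fold changes stay above 0.5 in all of them, while the adjusted p passes 0.05 in 6 alternatives for H2-K1 and in 8 each for H2-D1 and Tap1.

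The 3 calls were close to the threshold. H2-K1 remained called without lasered library 4 only (adjusted p = 0.0242), and without any other single library its adjusted p was 0.0598 to 0.0938 (limma). H2-D1 lost the call without unlasered library 2 (0.0651) and without lasered library 1 (0.0640), 2 (0.0558) or 3 (0.0560), and Tap1 without unlasered library 1 (0.0547) or 2 (0.0565) and without lasered library 1 (0.0714) or 2 (0.0753). The fold changes themselves moved less, with log2 values of 0.66 to 0.91 for H2-K1, 0.68 to 0.88 for H2-D1 and 0.78 to 1.14 for Tap1 when each library was left out in turn. Of the other class I genes, H2-Q1, H2-Q4 and H2-Q10 likewise lost the call without unlasered library 2 or lasered library 1 or 2, H2-Q10 also without lasered library 3, H2-Q7 when any library but lasered library 4 was left out, and H2-Bl whichever library was left out.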

How the data were processed

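RNA of sorted rMG was sequenced from 3 unlasered and 4 lasered pools of mice. In the study's methods, the authors amplified cDNA with a kit that does not mark strand, removed adapters and duplicates (cutadapt, FastUniq), mapped with Bowtie2, counted with HTSeq against Ensembl annotation and normalised with DESeq2; the submitters' processing notes name GRCm38. The deposited values are headed TPM, but 100% of them are whole multiples of a single step per library (tolerance 0.0001 CPM), so they were not divided by length. In each library they sum to 1000000, so the authors' values are CPM. Groups came from the sample labels.

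The 17496 genes that reached 1 CPM in 3 or more libraries were fitted with limma 3.58.1 (R 4.3.3, statmod 1.5.0). The fit used log2(CPM + 1), a trend of variance with mean and robust moderation, with two-sided tests and Benjamini-Hochberg adjustment over all of them. A gene was called at an adjusted p under 0.05. A fold change on this scale understates that of low genes. edgeR 4.0.16 and DESeq2 1.42.0 were run on the recovered reads as alternatives. On simulated data of this comparison (40743 genes), 33.2% of genes changed 1.5-fold, 98.5% changed 2-fold and 100% changed 4-fold were called. Of the calls, 7.04%, 5.88% and 4.90% were unchanged genes. The simulation gave all genes the same dispersion, so these shares do not hold for genes that vary more between libraries of a group. H2-Ab1, for example, had a log2 fold change of 3.07 and was not called (adjusted p = 0.196 from limma). Coordinates and exon lengths are of GENCODE M21 (GRCm38), and 99.8% of listed genes were matched. For 4492 genes, reads listed jointly with an overlapping gene are part of the value. Members, lists and tests were chosen with earlier results of these data known, and 1 gene of the list of promoter factors is not reported here. Named were all 10 genes, of each list the called genes, the most abundant and the one with the lowest adjusted p, the 5 genes of most similar pattern, and Irf8; Psme1, Ccr7, Flt3 and other single markers named outside this rule were chosen after their values were seen. Alternatives were another pseudocount, other filters, median-of-ratios scaling, the count tests, a replicate block, each library left out and, chosen after seeing the data, lasered libraries 1 and 2 left out and the length of the longest coding transcript. Tables and plots were made in Python 3.11.15 (scipy 1.17.1, numpy 2.4.6, matplotlib 3.10.9, pandas 2.3.3).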

Additional observations from a re-analysis of the deposited data

Results flagged for a closer look

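In the 4 lasered libraries, Tapbp stood at 455 CPM in library 3, apart from the other libraries, whose lowest value was 594 CPM. The gap made up 0.906 of the range, above Dixon's 95% critical value for 4 samples. Of 16 genes looked at in this way, Tapbp was the only gene with such a library. Chance gives about 1 in 20 genes, so 1 of 16 is near what chance alone gives.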

How the results depend on the processing

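The number of the 10 genes called, 3 as reported, was also 3 with a pseudocount of 0.1, a filter of at least 10 CPM, median-of-ratios scaling, edgeR and DESeq2. It was 0 without a filter on low values, where more genes were tested, and 0 with lasered libraries 1 and 2 left out, with 3 genes at an unadjusted p under 0.05 in each case, and 0 to 3 when each library was left out in turn. Of the 50 further pathway genes, 5 were called as reported, 9 with DESeq2, 0 without a filter, 0 without lasered libraries 1 and 2, and 0 to 6 when each library was left out. With a replicate block, for which lasered library 4 has no partner, 0 of the 10 genes (5 at an unadjusted p under 0.05) and 0 of the 50 were called, and 3 genes overall. The deviations of same-numbered libraries correlated at -0.183, -0.126 and -0.0234, which gave no sign of pairing. So few correlations cannot exclude that libraries of the same number were handled together. Log2 fold changes crossed 0 only for genes near 0. Tap2 was at 0.0036 with median-of-ratios scaling, Psmb10 at -0.00055 with the block or without lasered library 4 and at -0.063 to 0.20 when each library was left out (lowest without unlasered library 3), and Psmb9 at -0.016 to 0.20 in the same way (lowest without lasered library 2) and at -0.15 without lasered libraries 1 and 2. The cause was not tested. With median-of-ratios scaling the lasered level of Tap2 was 125 CPM, more than 1 SD from the reported mean of 122 CPM. For single genes, 279 values under alternatives kept direction and side of the threshold or, for levels, moved by less than 1 SD, 61 lost the call and 2 gained it. Leaving out jointly listed reads was not run, because the table adds them to the gene's value. The gene with the fewest reads, Nlrc5, had 115 reads or more in each library, jointly listed reads included, and the effect of depth on the calls was not tested.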
